A study of Mus musculus with 19 samples.

Results

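Blood clotting is a cascade of serine proteases that ends when thrombin turns fibrinogen into fibrin, and plasmin later takes the clot apart. The 10 coagulation and fibrinolysis factors followed here were chosen by name: F2, F5, F7, F9, F10, F12, F13a1, Serpinc1, Plg and Plaur. Every non-control probe whose gene name in the scanner files was one of these was taken, which gave 14 of the 41174 probes, for 10 of the 27745 names on the array. Of these 14, 13 were among the 22939 probes tested. The exception was a second probe for F9, whose signal never stood well above background. The main probe of a gene is the one with the highest mean signal over all samples, and the other probe is called its second probe.

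Most clotting proteins are secreted by hepatocytes. The members were therefore kept in 2 groups. F2, F7, F9, F12, Serpinc1 and Plg are made mainly by the liver. F5, F10, F13a1 and Plaur are also made or carried by monocytes, macrophages, megakaryocytes or platelets. In vasculitis the vessel wall, platelets and monocytes meet, and monocytes and neutrophils use the urokinase receptor encoded by Plaur to bring plasminogen activation to their surface.

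The data are signals of single-color Agilent whole mouse genome arrays hybridized with RNA from blood leukocytes of male B6 and DBA/2 mice. All groups, 0 w included, had received CAWS, a water-soluble fraction of Candida albicans rich in mannoprotein and β-glucan, by intraperitoneal injection on 5 consecutive days, and 0 w is the time just after the last injection. No untreated sample was therefore available as a reference. There were 2 samples each of DBA/2 for all times (weeks 0, 2, 4, 8 and 9, written 0 w to 9 w) and of B6 0 w, 4 w and 8 w, and 1 sample each of B6 2 w and B6 9 w, whose errors and p values take the spread of the other groups. The methods give an age of 5 to 14 weeks and describe RNA from individual animals. The authors' results also say that the later weeks were taken from survivors. Values below are normalised log2 signals, which are log2 processed intensities minus the 75th percentile of the same array over the probes detected on every array. A value of 0 thus sits at that percentile, and values were compared between samples of 1 probe and not between probes. A probe is called well above background by the scanner software. A difference was called when limma's p value, adjusted by the Benjamini-Hochberg method over all tested probes, was below 0.05.

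Of 11 hepatocyte markers with a probe, 10 or 11 were well above background in each of the 4 samples of B6 0 w and B6 8 w, and 3 to 5 in each of the other 14 samples. Their mean normalised log2 signal was 0.83 in both B6 0 w samples, -0.02 and -0.01 in the B6 8 w samples, and between -6.18 and -4.16 elsewhere. Alb, the plasma albumin gene, had a mean of 3.88 at B6 0 w and 2.87 at B6 8 w and was not well above background at B6 4 w or 9 w. In the single B6 2 w sample, all 10 platelet markers with a probe were lower than at 0 w, with a median difference of -1.48, beside 13% of all probes called. Of the blood cell lists, at least 11 of 12 monocyte, 7 of 9 neutrophil, 5 of 6 T cell and all B cell and erythroid markers were well above background in every group, on some array. Neutrophil markers were thus present although the source is also described as mononuclear cells.

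In DBA/2 mice, the main probes of 3 of the 10 members passed the threshold at 2 w against 0 w, where 15.7% of all tested probes did. The count was 4 at 4 w beside 14.8% of all probes, 4 at 8 w beside 24.0%, and 6 at 9 w beside 27.7%. Each call was a rise except that of F12 at 9 w, a fall. The DBA/2 9 w arrays shared no slide with those of DBA/2 0 w, so that week and slide cannot be told apart in that comparison. The median difference over the 10 members was 0.25, 0.37, 0.38 and 0.49 at the 4 weeks, and over all probes -0.05, -0.10, -0.18 and -0.03. In B6 mice, 6 members passed at 2 w beside 13% of all probes, 5 at 4 w beside 15.7%, 4 at 8 w beside 21.2% and 6 at 9 w beside 9.34%. The B6 calls were 6 falls at 2 w, 3 falls and 2 rises at 4 w, 4 rises at 8 w, and 3 falls and 3 rises at 9 w. F2 is among the falls at weeks 2, 4 and 9. It was tested only because it is bright at B6 0 w and 8 w, so that nothing is read from its part in these counts. The median member differences in B6 mice were -1.24, -0.39, -0.33 and -0.37, against 0.08, -0.03, -0.04 and 0.00 for all probes. With normexp background correction, 23 of the 61 calls made on main probes in all 12 comparisons were kept and 59 kept their sign. Those kept in DBA/2 mice were F10 and F13a1 at 4 w, F10 and Plaur at 8 w, and F10, F5, F13a1 and Plaur at 9 w. In B6 mice they were F10 and F5 at 2 w, F13a1 at 4 w and 9 w, and F10, F5 and F13a1 at 8 w.

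Of the 6 liver-made factors, F2, F12 and Plg were high in B6 0 w and 8 w mice and low in B6 mice at weeks 2, 4 and 9, whereas F7, F9 and the main Serpinc1 probe passed the threshold nowhere. The promoters of the group are shown because its members split in this way. They are the bases directly upstream of the RefSeq transcript start on GRCm38.p6, 5′ to 3′, and capitals mark ACCTTTG or its reverse complement CAAAGGT, letters found within sites of HNF4-type nuclear receptors of hepatocytes. F2 is at chr2:91636458-91636607 (minus strand), F12 at chr13:55426805-55426954 (minus strand), F7 at chr8:13025884-13026033 (plus strand) and F9 at chrX:59999314-59999463 (plus strand).
F2: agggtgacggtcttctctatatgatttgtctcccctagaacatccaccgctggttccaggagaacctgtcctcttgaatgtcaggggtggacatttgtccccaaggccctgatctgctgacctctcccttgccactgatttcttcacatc
F12: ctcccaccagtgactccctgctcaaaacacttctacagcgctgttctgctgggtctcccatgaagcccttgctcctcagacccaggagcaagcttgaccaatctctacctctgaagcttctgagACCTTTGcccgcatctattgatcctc
F7: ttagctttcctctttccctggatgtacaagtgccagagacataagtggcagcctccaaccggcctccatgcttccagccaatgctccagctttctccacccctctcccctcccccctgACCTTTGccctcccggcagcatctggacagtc
F9: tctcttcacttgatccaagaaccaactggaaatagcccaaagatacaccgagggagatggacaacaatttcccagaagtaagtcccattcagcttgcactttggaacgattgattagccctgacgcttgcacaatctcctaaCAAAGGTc
The letters stand once in the windows of F12, F7 and F9, on either strand, and are not in those of F2 or Serpinc1. In all, 689 of 32851 promoter windows of 150 bases (2.10%) hold them. They were therefore present in F12, which changed, and in F7 and F9, which did not pass the threshold. The motif was picked after the sequences had been seen, and a match is not evidence of binding. Of the 10 members, 9 matched an entry of the promoter table, and Plg did not.

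F2 encodes prothrombin, the zymogen of thrombin, and its probe (chr2:91426267-91426326, mm8) set the B6 0 w and 8 w samples apart from all others. Its normalised log2 signal was 0.55 and 0.40 in the B6 0 w samples and 0.01 and -0.27 in the B6 8 w samples. In the other 14 samples it was not well above background and read between -7.36 and -6.03. The 2 kinds of sample did not overlap. Relative to B6 0 w, the signal was at least 39.9-fold lower at B6 2 w (adjusted p = 3.5e-05, limma), at least 37.8-fold lower at 4 w (adjusted p = 7.27e-06) and at least 35-fold lower at 9 w (adjusted p = 4.34e-05). These bounds set the B6 0 w mean against the lowest signal on each dim array that was well above background. The B6 8 w level was 0.61 below that at 0 w on the log2 scale, with an SE of 0.43, which missed the threshold (limma, adjusted p = 0.374). All DBA/2 groups were dim, so that no fold could be given within that strain. F2 passed the filter on dim probes only through the B6 0 w and 8 w samples, so that it had to differ between groups to be tested at all. With normexp background correction the falls in B6 mice at weeks 2, 4 and 9 stayed negative but lost their call (adjusted p = 0.124, 0.103 and 0.0763).

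Plg encodes plasminogen, the zymogen of the fibrin-cleaving protease plasmin. Its main probe (chr17:12262541-12262600) read -1.16 and -1.24 at B6 0 w, -4.0 at 2 w, -3.93 and -4.31 at 4 w, -1.35 and -1.50 at 8 w and -4.46 at 9 w. Samples of B6 0 w and 8 w were thus well separated from the other 4. The differences from 0 w on the log2 scale were -2.80 ± 0.16 (SE) at 2 w, -2.92 ± 0.13 at 4 w and -3.26 ± 0.16 at 9 w (limma, adjusted p = 1.08e-05, 1.15e-06 and 4.63e-06), and these calls were lost with normexp (adjusted p = 0.54, 0.479 and 0.299). The second Plg probe (chr17:12262463-12262522) fell in the same 3 comparisons, by at least 10.9-fold, 10.3-fold and 9.57-fold. In DBA/2 mice the main probe read -4.18 and -4.05 at 0 w, -4.39 and -4.21 at 2 w, -4.30 and -4.23 at 4 w, -3.03 and -3.17 at 8 w and -3.34 and -3.45 at 9 w. The rises of 1.01 ± 0.13 (8 w) and 0.72 ± 0.13 (9 w) had adjusted p values of 0.000509 and 0.00316, and the 4 samples lay above every earlier DBA/2 sample. The second probe did not show this rise in the test, at -0.50 ± 0.55 and 0.84 ± 0.55, and its 2 samples at 8 w were -6.35 and -4.46. At DBA/2 8 w 8 of the 11 hepatocyte markers were not well above background, and the mean over the 11 was -6.18 and -5.48. The 2 Plg probes therefore agree in B6 mice and not in DBA/2 mice, and neither DBA/2 call on the main probe was kept under normexp (adjusted p = 1 at 8 w and 0.0907 at 9 w).

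F12 encodes coagulation factor XII, which starts the contact pathway. In B6 mice its probe (chr13:55427717-55427776) read -2.15 and -2.05 at 0 w, -4.84 at 2 w, -4.68 and -4.15 at 4 w, -2.61 and -2.47 at 8 w and -4.61 at 9 w. The fall at 4 w was 2.32 on the log2 scale with an SE of 0.17 (adjusted p = 2.86e-05, limma). At 2 w and 9 w F12 was not well above background and was at least 6.67-fold and 5.71-fold lower than at 0 w. With normexp the falls of weeks 2, 4 and 9 kept their sign and lost their call (adjusted p = 1, 1 and 0.775). DBA/2 samples did not share these steps. They read -2.93 and -2.97 at 0 w, -3.13 and -2.95 at 2 w, -3.58 and -3.35 at 4 w, -3.49 and -3.31 at 8 w and -3.70 and -3.89 at 9 w, and all 10 were well above background. The fall reached the threshold at 9 w, at -0.84 ± 0.17 (adjusted p = 0.00507), and it turned to 0.55 with normexp (adjusted p = 0.269).

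Serpinc1 encodes antithrombin, the plasma inhibitor of thrombin and factor Xa, and its probes gave different pictures. The main probe (chr1:162832080-162834033), well above background in all 18 samples, lay between -3.08 and -2.17 in B6 mice and between -3.63 and -2.22 in DBA/2 mice. None of its differences passed, and the largest against 0 w was -0.89 ± 0.51 at B6 9 w (adjusted p = 0.355). The second probe (chr1:162839111-162839170) read 0.29 and 0.34 at B6 0 w and -0.37 and -0.48 at B6 8 w. It was -4.45 at B6 2 w, and it was not well above background in the other 13 samples, which read between -7.09 and -5.64. This is the order of groups seen for F2, with B6 0 w first and B6 8 w next. Against B6 0 w it was 4.76 lower at 2 w on the log2 scale (difference -4.76 ± 0.38, adjusted p = 3.86e-05), at least 33.8-fold lower at 4 w and at least 31.3-fold lower at 9 w, and with normexp these calls were lost (adjusted p = 0.121, 0.0783 and 0.0758). Like F2, this probe passed the filter only through the B6 samples in which it was bright, and so had to differ between groups. A reading of Serpinc1 from either probe alone would differ, and which probe reports the antithrombin transcript was not tested.

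F7 encodes the protease that tissue factor activates, and F9 the protease that activates factor X together with factor VIII. F7 (chr8:13035264-13035323) was well above background in 15 samples, with values from -4.18 to -2.79 in B6 mice and from -4.27 to -2.75 in DBA/2 mice. The main F9 probe (chrX:56376501-56376560) was well above background in all 18, at -2.47 to -1.53 in B6 mice and -2.43 to -1.36 in DBA/2 mice. Neither passed in any of the 12 comparisons. Among the week comparisons, the F7 difference farthest from 0 was -1.12 ± 0.50 at B6 8 w (adjusted p = 0.153), and that of F9 was -0.64 ± 0.24, also at B6 8 w (adjusted p = 0.0979). Their ranges in the 2 strains overlapped. The B6 8 w samples, in which F2 was high, held the lowest B6 values of both genes, at -4.18 and -3.97 for F7 and -2.39 and -2.47 for F9. Without DBA/2 8 w replicate 1, F9 passed in 3 comparisons, at 0.87 for DBA/2 8 w, 1.07 between strains at 8 w and 0.99 for the strain difference (adjusted p = 0.0417, 0.0165 and 0.0411).

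**Figure D1:**
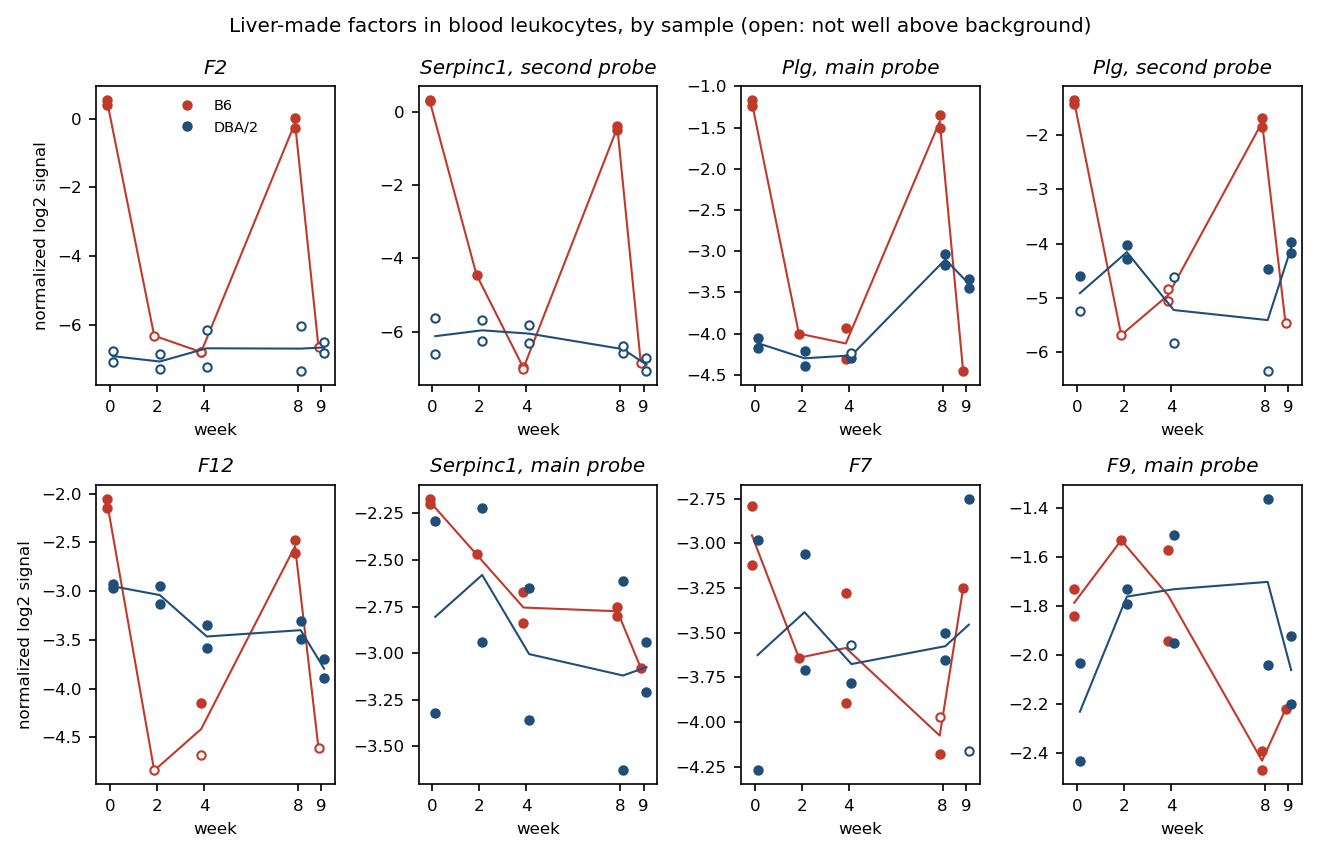
Normalised log2 signal (y axis) of the liver-made factors by week after CAWS (x axis), with 1 point per sample, B6 in red and DBA/2 in blue, and a line through the group means. Open points were not well above background on every array of the sample. F2, the second Serpinc1 probe, Plg and F12 are high in B6 0 w and 8 w samples, while F7, F9 and the main Serpinc1 probe are not, and each panel has its own scale.

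The hepatocyte markers were high in the same 4 samples as F2, Plg, F12 and the second Serpinc1 probe. Of the 11 markers, 10 fell in B6 mice at weeks 2, 4 and 9, beside 13%, 15.7% and 9.34% of all probes called. At 8 w 1 fell, beside 21.2%. The median differences at weeks 2, 4 and 9 were -5.72, -5.79 and -6.04. There 6, 7 and 8 of the markers were not well above background, so that these are no measured sizes. Apoa1, Apoa2, Apoc3 and Cyp2e1 were well above background in 4 samples each and Ttr in 3. These passed the filter through few, bright samples, so that nothing is read from the count of falls. Within the 10 DBA/2 samples, r with the hepatocyte mean was -0.02 for F2, -0.69 for the main Plg probe, 0.53 for the second Plg probe and 0.35 for F12, as a description of points that share arrays. In each DBA/2 group 6 to 8 of the 11 hepatocyte markers were not well above background. F2 was so in no DBA/2 sample, so that its r there cannot show a relation. Likeness of profile was measured as Pearson r over the 18 samples, 1 probe against another. The genes whose profile was most like F12 were BC093515, Pgrmc1 and Igfbp7 (r = 0.903, 0.869 and 0.850), and those most like the main Plg probe were Errfi1, Lap3 and Cmbl (r = 0.958, 0.954 and 0.940). Asgr2, a subunit of the hepatocyte asialoglycoprotein receptor, was nearest to the main Serpinc1 probe (r = 0.910), followed by Tex264 and 4933417E01Rik. Within the 10 DBA/2 samples its r with that probe was 0.976. There the main Serpinc1 probe read higher in replicate 2 than in replicate 1 at every week. The replicate number coincided with the scan day, so that this likeness is not read as one of liver RNA. F7 was nearest to Gna15 (r = 0.892), and F9 to 4930520O04Rik (r = 0.788). The part of hepatocyte RNA in the B6 values of F2, Plg and F12 was not tested. In a bulk blood sample, fewer cells of a type and less RNA per cell cannot be told apart.

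F10, F13a1, F5 and Plaur rose in DBA/2 mice after 0 w. In B6 mice F5, F10 and F13a1 were lower in the single 2 w sample and F5 and F13a1 were higher from 4 w on. All 5 of their probes were well above background in all 18 samples. The windows upstream of F5, at chr1:164151685-164151834 (plus strand), F13a1, at chr13:37050245-37050394 (minus strand), and Plaur, at chr7:24462333-24462482 (plus strand), are shown with the ETS core AGGAAG (ETS factors act in myeloid cells and megakaryocytes) and the core GATAA of GATA factors in capitals, on either strand.
F5: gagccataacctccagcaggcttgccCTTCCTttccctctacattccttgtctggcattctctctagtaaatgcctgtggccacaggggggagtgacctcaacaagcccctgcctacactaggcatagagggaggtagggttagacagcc
F13a1: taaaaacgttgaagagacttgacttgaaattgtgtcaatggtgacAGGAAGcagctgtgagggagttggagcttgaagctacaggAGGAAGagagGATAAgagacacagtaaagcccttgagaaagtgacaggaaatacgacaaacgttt
Plaur: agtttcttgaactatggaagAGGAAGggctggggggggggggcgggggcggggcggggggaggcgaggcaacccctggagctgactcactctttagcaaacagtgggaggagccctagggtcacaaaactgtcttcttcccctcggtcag
The ETS core was present in 19.7% of the 32851 windows, and the GATA core in 13.3%. F13a1, for which the first of 2 RefSeq starts is shown, has the ETS core at 2 places and the GATA core once, and no match overlaps another. The F10 window holds none of the motifs searched. These motifs, too, were chosen after the windows were read.

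F10 encodes factor X, whose active form cleaves prothrombin, and it rose at every later week in DBA/2 mice. Its probe (chr8:13055751-13055810) read -0.32 and -0.38 at DBA/2 0 w, 0.41 and 0.34 at 2 w, 0.50 and 0.44 at 4 w, 0.65 and 0.57 at 8 w and 0.71 and 0.67 at 9 w. Each later DBA/2 sample was above both 0 w samples. The differences were 0.72 ± 0.08, 0.82 ± 0.08, 0.96 ± 0.08 and 1.04 ± 0.08 in turn, or 1.65-fold to 2.05-fold (limma, adjusted p = 0.000378, 0.000112, 2.17e-05 and 2.04e-05). In B6 mice F10 was 0.97 and 0.85 at 0 w, -0.83 at 2 w, 0.71 and 0.69 at 4 w, 1.53 and 1.48 at 8 w and 1.13 at 9 w. It fell at 2 w (-1.74 ± 0.09, adjusted p = 6.8e-06) and rose at 8 w (0.60 ± 0.08, adjusted p = 0.000449). The 4 w and 9 w values did not pass, at -0.21 ± 0.08 and 0.22 ± 0.09 (adjusted p = 0.0968 and 0.185). From high to low the group means ran B6 8 w, B6 9 w, B6 0 w, B6 4 w, DBA/2 9 w, 8 w, 4 w, 2 w and 0 w, and B6 2 w, and the only neighbours whose samples overlapped were B6 4 w and DBA/2 9 w.

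F13a1 encodes the A subunit of factor XIII, the transglutaminase that cross-links fibrin. In DBA/2 mice its probe (chr13:36874811-36874870) read 2.89 and 2.79 at 0 w, 3.64 and 3.51 at 2 w, 3.86 and 3.77 at 4 w, 3.58 and 3.43 at 8 w and 4.03 and 3.93 at 9 w. It rose by 0.74 ± 0.09, 0.97 ± 0.09, 0.66 ± 0.09 and 1.14 ± 0.09 in turn (adjusted p = 0.000696, 9.16e-05, 0.000506 and 2.58e-05). No later sample overlapped with 0 w. In B6 mice it read 2.18 and 2.11 at 0 w, 1.02 at 2 w, 3.17 and 3.16 at 4 w, 3.93 and 3.88 at 8 w and 3.62 at 9 w. The differences from 0 w were -1.12 ± 0.11, 1.02 ± 0.09, 1.76 ± 0.09 and 1.48 ± 0.11 (adjusted p = 0.000107, 7.53e-05, 1.69e-06 and 3.5e-05), a 3.39-fold rise at 8 w.

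F5 encodes factor V, the cofactor of factor Xa, part of which is stored in platelets. In DBA/2 mice its probe (chr1:166046272-166048460) read 1.29 and 1.05 at 0 w, 1.97 and 1.92 at 2 w, 1.72 and 1.62 at 4 w, 1.33 and 1.32 at 8 w and 2.06 and 1.85 at 9 w. Rises of 0.78 ± 0.10, 0.50 ± 0.10 and 0.79 ± 0.10 passed for weeks 2, 4 and 9 (adjusted p = 0.0012, 0.00998 and 0.000486), and 8 w gave 0.16 ± 0.10 (adjusted p = 0.319). The 4 w call was lost without DBA/2 0 w replicate 2 (adjusted p = 0.0773) or DBA/2 4 w replicate 1 (0.0616). In B6 mice F5 was 0.49 and 0.48 at 0 w, -0.89 at 2 w, 1.32 and 1.33 at 4 w, 1.58 and 1.45 at 8 w and 1.30 at 9 w. It was 1.37 lower at 2 w (difference -1.37 ± 0.13, adjusted p = 8.44e-05) and higher by 0.84 ± 0.10, 1.03 ± 0.10 and 0.82 ± 0.13 at weeks 4, 8 and 9 (adjusted p = 0.000702, 0.000112 and 0.00344).

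The platelet markers moved with these genes. The mean of the 10 platelet markers was 3.66 and 3.64 at B6 0 w and 2.15 in the B6 2 w sample, the lowest of all 18, and lay between 4.06 and 4.30 in B6 mice at weeks 4, 8 and 9. In DBA/2 mice it was 3.32 and 3.22 at 0 w and between 3.44 and 4.02 later. All 10 markers rose at 2 w and again at 9 w, beside 15.7% and 27.7% of all probes called. At 4 w 9 rose beside 14.8%, and at 8 w 3 rose and 1 fell beside 24.0%. Itga2b, the platelet integrin alpha IIb, rose by 0.68, 0.59 and 0.92 at weeks 2, 4 and 9, and Pf4, platelet factor 4, by 0.40 at 2 w and 0.36 at 9 w. Within the 10 DBA/2 samples, Pearson r with the platelet mean was 0.98 for F5, 0.89 for F13a1 and 0.73 for F10, again over points that share arrays. For F10, r was 0.78 with the monocyte mean and 0.79 with the neutrophil mean. For F13a1 these were 0.65 and 0.51, and r with the tissue macrophage mean was 0.64 for both genes. Within the DBA/2 samples F10 thus did not follow the platelet list in particular. Over all 18 samples, both strains together, its r was 0.84 with the platelet mean. It was 0.49 with the hepatocyte, 0.44 with the monocyte, 0.23 with the neutrophil and 0.19 with the tissue macrophage mean. The part of platelet, monocyte, macrophage or neutrophil RNA in these changes was not tested.

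Plaur encodes the urokinase receptor, and it rose in DBA/2 mice from 4 w on by both of its probes. The main probe (chr7:24184310-24184369) read -1.80 and -1.46 at DBA/2 0 w, -1.42 and -1.32 at 2 w, -0.75 and -0.86 at 4 w, -0.46 and -0.53 at 8 w and -0.53 and -0.67 at 9 w. The 6 samples of the last 3 weeks lay above the 4 earlier ones. Rises of 0.82 ± 0.13, 1.13 ± 0.13 and 1.03 ± 0.13 passed for these weeks (adjusted p = 0.00305, 0.000238 and 0.000436), while 2 w gave 0.26 ± 0.13 (adjusted p = 0.247). The second probe (chr7:24183056-24183115) read -2.80 and -3.04 at DBA/2 0 w, -2.25 and -2.31 at 4 w, -1.83 and -1.84 at 8 w and -2.13 and -2.19 at 9 w. It rose by 0.64 ± 0.10, 1.09 ± 0.10 and 0.76 ± 0.10 at these weeks (adjusted p = 0.00227, 4.51e-05 and 0.000417). With normexp all 3 calls of the second probe were lost (adjusted p = 1, 0.826 and 0.0702), as was that of the main probe at 4 w (0.265). Monocyte markers moved alongside. Of 12, 11 rose in DBA/2 mice at weeks 4, 8 and 9, with median differences of 1.33, 1.83 and 1.40, and all 9 neutrophil markers rose too. The share of all probes called was 14.8%, 24.0% and 27.7%. Among the DBA/2 samples r with the monocyte mean was 0.96 for each Plaur probe, r with the neutrophil mean was 0.83 for the main and 0.92 for the second probe, and the part of these cells in the Plaur change was not tested.

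In B6 mice the Plaur probes differed from each other. The main probe read -1.34 and -1.50 at 0 w, -1.31 at 2 w, -1.32 and -1.56 at 4 w, -0.84 and -0.93 at 8 w and -0.71 at 9 w. It passed at 8 w (0.53 ± 0.13, adjusted p = 0.0182) and 9 w (0.71 ± 0.16, adjusted p = 0.0237), while the 2 w sample lay just above both 0 w samples and the 4 w samples lay on either side of them. Both calls were lost without B6 0 w replicate 2 (adjusted p = 0.113 and 0.102), and that at 8 w also without either B6 8 w sample (0.0949 without replicate 1 and 0.0541 without replicate 2). The second probe read -0.98 and -1.11 at 0 w, 0.15 at 2 w, 0.44 and 0.29 at 4 w, 0.13 and 0.13 at 8 w and 0.06 at 9 w. It was thus up at all 4 weeks, by 1.20 ± 0.12, 1.41 ± 0.10, 1.18 ± 0.10 and 1.11 ± 0.12 (adjusted p = 0.000127, 1.78e-05, 3.57e-05 and 0.000368). With normexp these 4 calls were lost (adjusted p = 0.856, 0.436, 0.197 and 0.775), as were both calls of the main probe (0.424 and 0.775). Of 9 neutrophil markers in B6 mice, 9, 8, 9 and 9 rose in turn, with median differences of 1.51, 1.17, 3.06 and 1.69, and of 12 monocyte markers 6 fell and 1 rose at 4 w. The share of all probes called was 13%, 15.7%, 21.2% and 9.34% at the 4 weeks. At 8 w, 8 of the 12 monocyte markers rose, and the median differences of the monocyte list were 0.25, -0.39, 0.54 and 0.47 at the 4 weeks in turn. At 4 w one Plaur probe rose in B6 mice and the other did not pass.

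**Figure D2:**
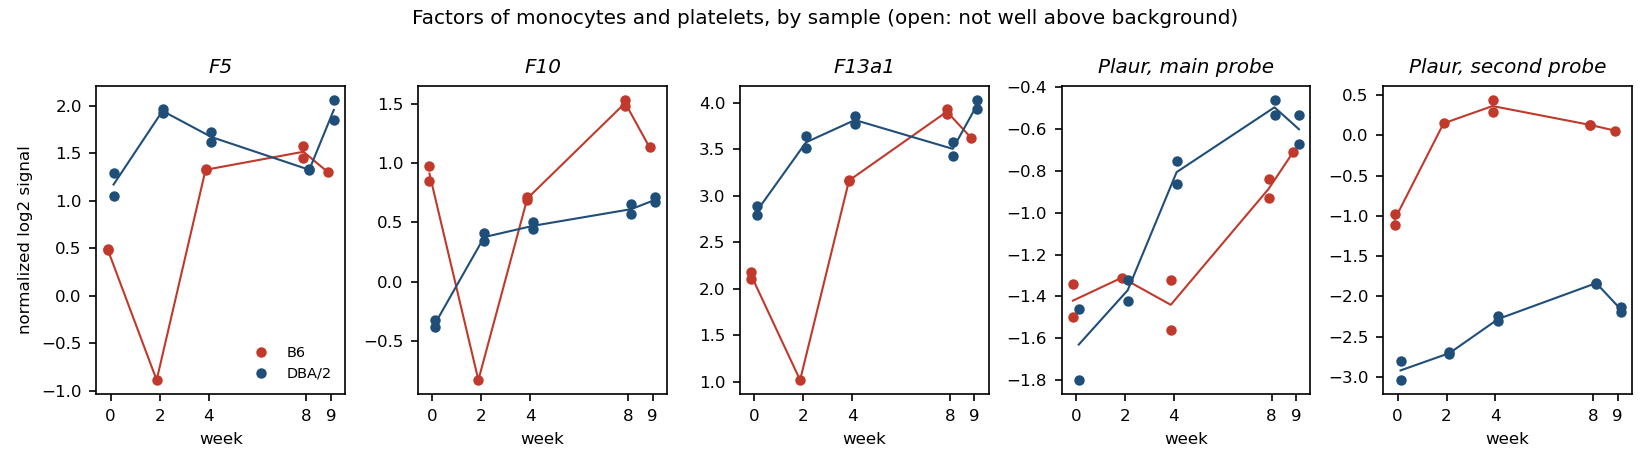
Normalised log2 signal (y axis) of F5, F10, F13a1 and the main and second Plaur probes by week after CAWS (x axis), with 1 point per sample, B6 in red and DBA/2 in blue, and a line through the group means. F5, F10 and F13a1 dip in the B6 2 w sample, and the second Plaur probe shows a strain gap that the main probe does not.

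**Figure D3:**
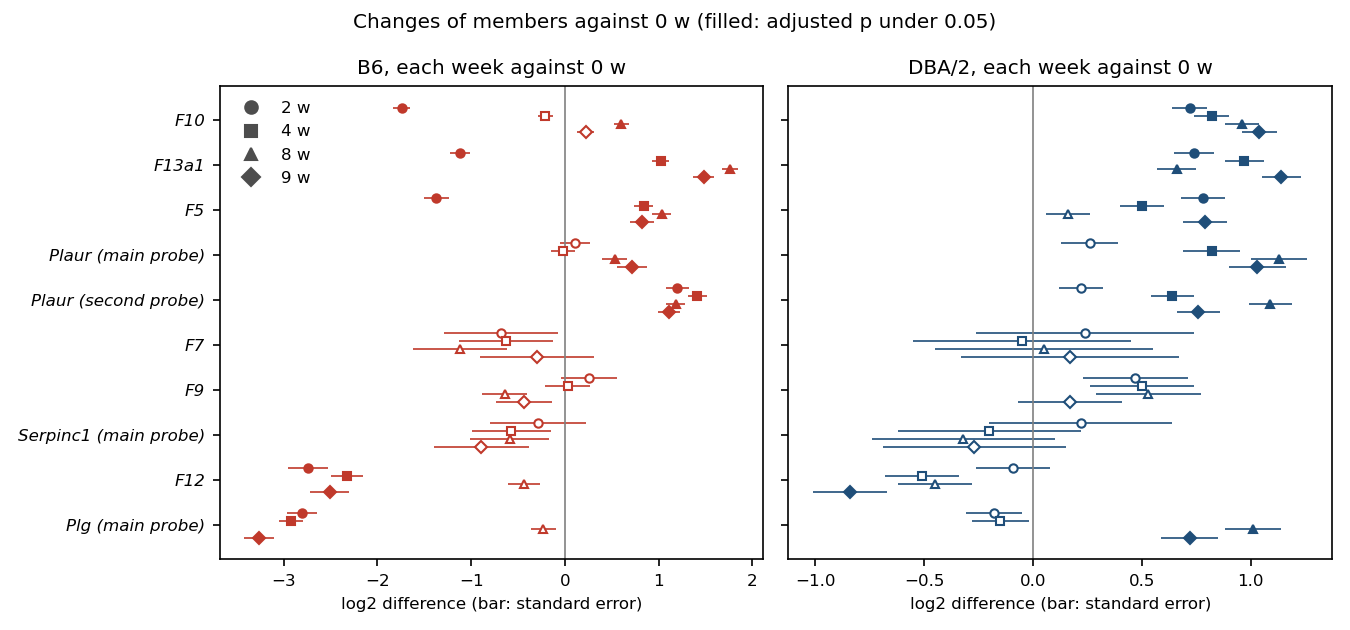
Log2 difference of each later week from 0 w (x axis), with the standard error of the fit as a bar, for B6 (left) and DBA/2 (right), on axes of different range. Filled symbols passed an adjusted p of 0.05. F2 is left out because its low groups were not well above background, as F12 was at B6 2 w and 9 w. The DBA/2 rises of F10, F13a1, F5 and Plaur that passed lie between 0.50 and 1.14.

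The profiles most like those of the blood-borne members, over the 18 samples, are given next. For F5 they were Vcl, Myct1 and Tpm4 (r = 0.985, 0.985 and 0.982). For F13a1 they were Cd93, Dgkg and Myo6 (r = 0.980, 0.972 and 0.967), and for F10 Pkm2, Aldoa and 4931406C07Rik (r = 0.955, 0.948 and 0.947). The main Plaur probe was nearest to 4930506M07Rik, Mpeg1 and Cd300a (r = 0.960, 0.956 and 0.955). Mpeg1 is a macrophage-expressed perforin-like gene and Cd300a a myeloid receptor. Within the 10 DBA/2 samples r was 0.912 for Vcl with F5, 0.936 for Cd93 with F13a1, 0.961 for Pkm2 with F10 and 0.978 for Mpeg1 with Plaur.

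Strains were set against each other at 0 w, 4 w and 8 w. At 0 w, 6 members passed beside 32.7% of all probes, with F5 and F13a1 higher and F2, Plg, F12 and F10 lower in DBA/2 mice. F2 was at least 40.5-fold lower. It was tested only because it is bright in B6 0 w and 8 w samples, so that nothing is read from its calls between strains. Plg was 7.55-fold lower, at -2.92 ± 0.13 (adjusted p = 4.65e-07), and F12 was at -0.85 ± 0.17 (adjusted p = 0.00376). F10 was 2.38-fold lower, at -1.25 ± 0.08 (adjusted p = 2.42e-06). F5 was at 0.68 ± 0.10 and F13a1 at 0.70 ± 0.09 (adjusted p = 0.00076 and 0.000242).

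At 4 w the liver-made factors no longer set the strains apart in the same direction. There, 5 members passed beside 32.1% of all probes. F12, F5, F13a1 and the main Plaur probe were higher in DBA/2 mice, at 0.95 ± 0.17, 0.35 ± 0.10, 0.65 ± 0.09 and 0.63 ± 0.13 (adjusted p = 0.00203, 0.0273, 0.000362 and 0.00503), and F10 was lower, at -0.23 ± 0.08 (adjusted p = 0.0427). The F5 and F10 calls at 4 w were lost when any 1 of the 4 samples at 4 w was left out, with adjusted p from 0.0557 to 0.178, and F12 turned to -0.31 with normexp. F2 was not well above background in either strain, and the main Plg probe gave -0.15 ± 0.13 (adjusted p = 0.46). At 8 w, 5 members passed beside 25.4%, each lower in DBA/2 mice. F2 was at least 40.9-fold lower, with the same limit as at 0 w. Plg was at -1.68 ± 0.13, F12 at -0.86 ± 0.17, F10 at -0.90 ± 0.08 and F13a1 at -0.40 ± 0.09 (adjusted p = 1.74e-05, 0.00447, 2.46e-05 and 0.00793). That of F13a1 was lost without DBA/2 8 w replicate 2 (adjusted p = 0.0649). With normexp the strain calls kept were F10, F5, F2, F13a1 and Plg at 0 w, F13a1 at 4 w, and F10 and F2 at 8 w. Those of F2 say nothing further, because its place among the tested probes already rested on the B6 0 w and 8 w samples.

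The second Plaur probe was lower in DBA/2 mice throughout, at -1.87 ± 0.10 at 0 w, -2.65 ± 0.10 at 4 w and -1.96 ± 0.10 at 8 w (adjusted p = 8.76e-07, 9.72e-08 and 9.18e-07), or 3.67-fold to 6.27-fold. The 10 DBA/2 samples lay between -3.04 and -1.83 and the 8 B6 samples between -1.11 and 0.44. The main probe was not lower at any of the 3 times in the test, at -0.21 ± 0.13, 0.63 ± 0.13 and 0.39 ± 0.13. The strain order of Plaur thus depends on the probe. DBA/2 samples of 0 w, 4 w and 8 w shared no slide with B6 samples, so that strain and slide cannot be told apart in these comparisons. With slide as a random block, none of the strain calls named here changed.

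**Figure D4:**
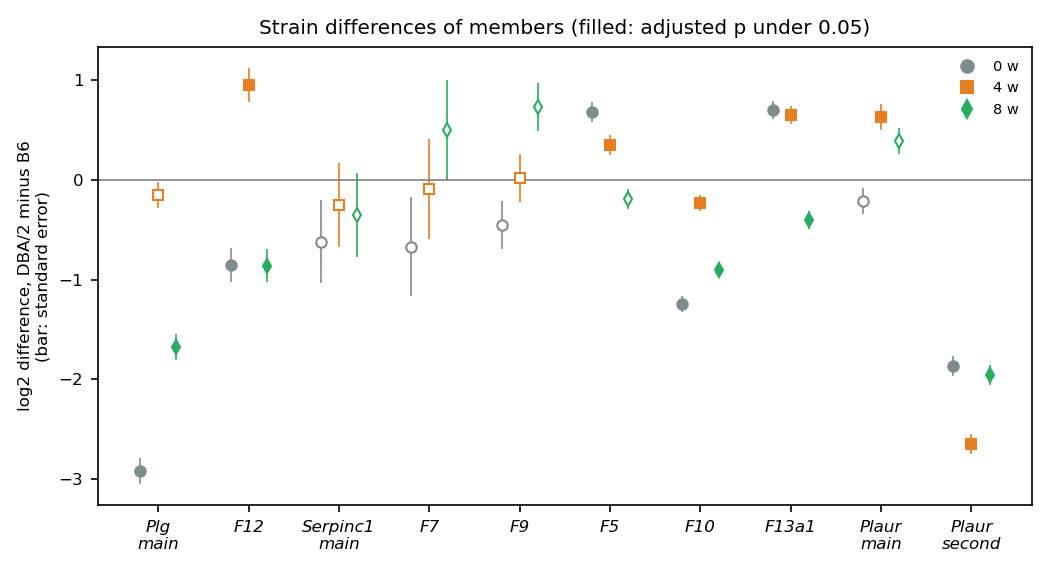
Log2 difference of DBA/2 minus B6 (y axis) at 0 w, 4 w and 8 w for members other than F2, with the standard error of the fit as a bar and filled symbols for an adjusted p under 0.05. Plg is lower in DBA/2 mice except at 4 w, and the second Plaur probe is lower at all 3 times whereas the main probe is not.

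The strain difference of the change asks whether a member's move from 0 w to the mean of 4 w and 8 w differed between the strains. It passed for 7 members beside 13.2% of all probes, with F2, Plg, F12, F10 and the main Plaur probe moving up more, or down less, in DBA/2 mice and F5 and F13a1 rising more in B6 mice. The value for F10 was 0.69 ± 0.09 (adjusted p = 0.00125), and it held with 4 w alone (1.02, adjusted p = 0.000274) and with 8 w alone (0.36, adjusted p = 0.0461). That for F13a1 was -0.57 ± 0.11 (adjusted p = 0.00742), with -1.10 for 8 w alone and -0.05 for 4 w alone (adjusted p = 0.875). For F5 it was -0.61 ± 0.13 (adjusted p = 0.0126), with -0.87 at 8 w and -0.34 at 4 w (adjusted p = 0.186). The main Plaur probe gave 0.72 ± 0.16 (adjusted p = 0.0179). The call was lost without 1 sample in 3 members. Without DBA/2 0 w replicate 1 the adjusted p was 0.0583 for F5, 0.0749 for Plaur and 0.0656 for F12, F12 also lost it without any other 0 w sample (0.0575 to 0.0785), and Plaur without B6 0 w replicate 1 (0.0827). The main Plaur call held with 4 w alone (0.84, adjusted p = 0.0174) and was lost with 8 w alone (0.60, adjusted p = 0.0534). Among the liver-made members, F2 was dim in every DBA/2 sample and at B6 4 w, so that it has no measured size and nothing is read from its call. The main Plg probe was at 2.77 with 4 w alone and 1.24 with 8 w alone, and F12 at 1.80 and -0.01. Over both weeks the second Plg probe did not pass, at 1.56 ± 0.68 (limma, adjusted p = 0.181). With normexp, limma called 0 of the 7, and all 7 kept their sign.

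The list of other genes of the pathway held 37 names, all with a probe, and 26 of the main probes were tested. In DBA/2 mice 6, 8, 6 and 9 of the 26 passed at the later weeks in turn, with 6, 8, 5 and 8 rising, beside 15.7%, 14.8%, 24.0% and 27.7% of all probes called. Of the named genes, Vwf, which carries factor VIII and tethers platelets, rose by 0.71, 0.44 and 0.90 at weeks 2, 4 and 9 (adjusted p = 0.00088, 0.00914 and 9.88e-05). Pros1, the protein S cofactor of activated protein C, rose at the same weeks by 0.60, 0.52 and 0.33. Anxa2, a cell surface docking protein for plasminogen and its activator, rose at all 4 weeks, from 0.87 at 2 w to 2.11 at 8 w (adjusted p = 2.11e-07 at 8 w). Its partner S100a10 fell at 9 w, at -0.48 (adjusted p = 0.0157), and was lower in DBA/2 mice at 0 w, 4 w and 8 w, at -1.60, -1.84 and -1.86. Thbd, the thrombin receptor on the anticoagulant side, rose at all 4 weeks by 0.43 to 1.05.

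Both inhibitors of plasminogen activators that were tested and named rose in DBA/2 mice. Serpinb2, which inhibits urokinase, rose at all 4 weeks by 0.32 to 0.94, and Serpine2, the protease nexin of thrombin and urokinase, by 0.58 to 0.80. F2r, a thrombin receptor, rose at 4 w (0.83, adjusted p = 0.00583) and 9 w (0.54, adjusted p = 0.0262), and F2rl2, a further thrombin receptor, at 8 w and 9 w (0.79 and 0.99). Plgrkt, a plasminogen receptor, was lower at 8 w, at -0.30 (adjusted p = 0.0435). Tfpi, the inhibitor of the tissue factor pathway, and Cpb2, which protects fibrin from plasmin, were lower in DBA/2 than in B6 mice at 4 w, at -2.16 and -0.97 (adjusted p = 0.0322 and 0.0136), but Tfpi was well above background in only 1 of the 2 DBA/2 4 w samples. Neither passed in a DBA/2 week comparison. F3, the tissue factor itself, and Plau, urokinase, were not well above background in any sample.

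In B6 mice 16, 15, 8 and 15 of the 26 pathway genes passed at the later weeks in turn, and 16, 12, 3 and 11 were lower than at 0 w, beside 13%, 15.7%, 21.2% and 9.34% of all probes called. Fibrinogen, whose 3 chains are encoded by Fga, Fgb and Fgg, and Proc, the protein C zymogen, are given as examples chosen after their values were seen. Fgb had a mean of 1.55 at B6 0 w and 2.45 at 8 w, against -1.94, -1.60 and -2.57 at weeks 2, 4 and 9. Fgg was at least 77.8-fold lower at 4 w than at 0 w (adjusted p = 7.67e-06, limma), and Proc was lower by 2.47 on the log2 scale (difference -2.47, adjusted p = 6.31e-05). Fga, F11 and Serpind1 were well above background in 4 samples each, Kng1 in 5, Fgg in 6 and Serpinf2 in 7, B6 0 w and 8 w samples for the most part. These 6 passed the filter mainly through the samples in which they were bright, so that nothing is read from the B6 counts of falls. Vwf and Pros1 went with F5, being lower at B6 2 w (-1.63 and -1.35) and higher at 8 w (0.73 and 0.67).

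**Figure D5:**
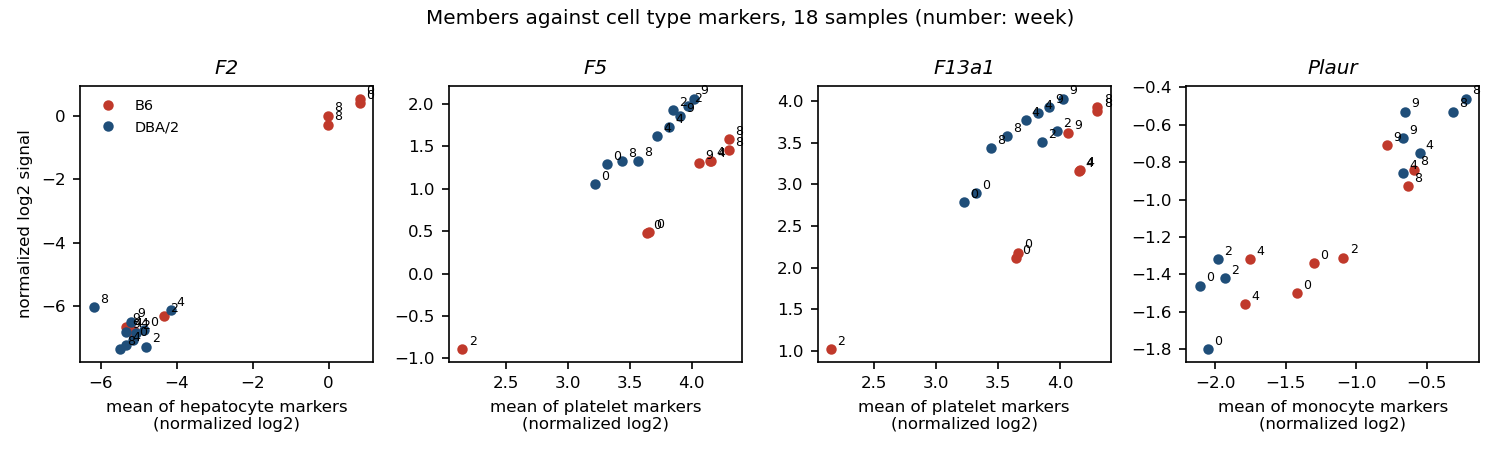
Normalised log2 signal of F2, F5, F13a1 and the main Plaur probe (y axes) against the mean of hepatocyte, platelet, platelet and monocyte markers (x axes), with 1 point per sample labelled by week, B6 in red and DBA/2 in blue. The 4 B6 samples of 0 w and 8 w stand apart for F2, the B6 2 w sample is the lowest for F5 and F13a1, and the DBA/2 samples at weeks 4, 8 and 9 are among the highest for Plaur.

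The week comparisons were also read within slides, except DBA/2 9 w against 0 w, whose groups shared no slide. With slide as a random block, all 6 member calls of that comparison were kept. For the 44 called week comparisons of member probes with both groups on a shared slide, all 65 within-slide differences had the sign of the fit. They come from the arrays that made the fit, and only called comparisons were taken. Their sign was thus largely set beforehand and is no separate support. For F10 in DBA/2 mice at 8 w they were 0.97 and 0.95, for F13a1 in B6 mice at 4 w 1.07 and 0.99, and for the main Plaur probe in DBA/2 mice at 4 w 1.04 and 0.59.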

How the data were processed

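Blood leukocyte RNA was measured on 19 single-color arrays, which covered 18 RNA samples in 10 groups (2 arrays of B6 0 w replicate 2 were averaged). The deposited scanner files of the authors hold spot intensity, and the submitters' processing notes name Agilent Feature Extraction 9.5.3.1, whose processed intensity is background-corrected. Groups came from the sample titles. Outlier spots were left out, spots of a probe averaged, and log2 intensities centred on each array's 75th percentile over the 11536 probes detected on every array. Between 33.9% and 51.4% of spots per array were well above background, and the number of arrays limits the precision. The 22939 probes detected in 2 or more samples were fitted with limma 3.58.1 (R 4.3.3), 1 mean per group, with Benjamini-Hochberg adjustment at 0.05. On simulated data for DBA/2 4 w against 0 w over 22939 probes, 42 of 100 probes changed 2-fold and 76 of 100 changed 4-fold were recovered.

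The deposited value table of the authors, processed intensity on a linear scale that was log2-transformed here, served as an alternative. Others were normexp background correction (offset 50), quantile normalization, a percentile over all probes, other filters, slide or replicate number as a block and leaving out samples. A bound for a dim probe used the lowest signal well above background on each array. Pathway genes were named if they passed in a DBA/2 week comparison or between strains at 4 w, taking the 12 with the highest mean signal; examples outside that rule are named as such. Members, lists and motifs were chosen with earlier results of these data known. Probe positions are on mm8, for which exon and untranslated region annotation was not used here; promoter sequences are from RefSeq on GRCm38.p6. The authors' results give 3 mice per time point, of which 1 or 2 samples per group were analysed here.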

Additional observations from a re-analysis of the deposited data

Results flagged for a closer look

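The change from 0 w to the mean of 4 w and 8 w was compared between the strains by limma's interaction contrast (change in DBA/2 minus change in B6, log2 scale). It passed the threshold for 9 member probes, but F2 and the second Serpinc1 probe among them are no measured difference between strains. Among the liver-made factors the values were 2.00 for the main Plg probe (adjusted p = 7.79e-05) and 0.90 for F12 (adjusted p = 0.0204). The second Plg probe and the main Serpinc1 probe did not pass, at 1.56 and 0.32 (adjusted p = 0.181 and 0.788). F2 was at 4.17 (adjusted p = 0.000958) and the second Serpinc1 probe at 3.89 (adjusted p = 0.000221). Both F2 and the second Serpinc1 probe were dim (below the software's call) in all DBA/2 samples and at B6 4 w. They were tested only because they are bright in other B6 groups. Their values set a B6 change against background, and nothing is read from their calls. Among the factors of monocytes and platelets the values were -0.61 for F5 (adjusted p = 0.0126), 0.69 for F10 (adjusted p = 0.00125) and -0.57 for F13a1 (adjusted p = 0.00742). The Plaur probes differed in sign, at 0.72 for the main probe (adjusted p = 0.0179) and -0.43 for the second (adjusted p = 0.0402). The call on the second probe was lost in 12 of the fits that left out 1 sample (adjusted p = 0.0587 to 0.161), with 8 w alone (-0.09, adjusted p = 0.737) and with normexp (adjusted p = 0.977). Groups held 1 or 2 samples, so that no sample could be singled out within a group.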

How the results depend on the processing

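Over 156 results and 30 alternative settings, 4047 of 4214 values stayed on their side of the threshold (68 of them with the other sign, called in neither setting), 128 lost a call, 35 gained one and 4 called values changed sign. Normexp background correction changed the most. The members called fell to 0 at DBA/2 2 w, 2 at DBA/2 4 w, 2 at DBA/2 8 w, 2 at B6 2 w, 1 at B6 4 w, 1 at B6 9 w, 1 between strains at 4 w, 2 between strains at 8 w and 0 for the strain difference. It also moved the median of all probes by up to 0.816 on the log2 scale (DBA/2 9 w), and turned F12 to 0.55 at DBA/2 9 w, F12 to -0.31 between strains at 4 w and the second Serpinc1 probe to -0.79 between strains at 4 w, where both groups were dim. With no filter on dim probes, 3 members passed between strains at 4 w and 3 for the strain difference. Taken against 8 w alone, the strain difference of F12 was -0.01. The cause of these changes was not tested. Leaving out 1 sample at a time gave 3 to 5 members between strains at 4 w, the 3 without either B6 4 w or either DBA/2 4 w sample, and 4 to 8 for the strain difference, the 4 without DBA/2 0 w replicate 1.

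The replicate number coincided with the scan day of the arrays (1 and 2), but no label says that it marks a pair. Correlations of the deviations of same-numbered samples ran from 0.0167 to 0.409 over 28 pairs of groups, with 0.335 or more among DBA/2 0 w, 2 w, 4 w and 8 w, whose same-numbered samples also shared a slide. With the replicate number, and so the scan day, as a block, 3, 5, 5 and 6 members were called at the later DBA/2 weeks in turn, 6, 6, 4 and 7 in B6 mice, 6, 5 and 6 between strains and 7 for the strain difference, and no call was lost. The splits by single week were chosen after seeing the data. Low signal limits F2, F12 and the second probes of Serpinc1 and Plg, which were not well above background in 3 to 14 of the 18 samples.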
